A study of Homo sapiens with 4 samples.

Results

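The 33 genes described here code for regulators of p53, for products that p53 is known to induce, and for the BCL2 family, the inhibitor of apoptosis (IAP) proteins and the caspases that carry out apoptosis. They were chosen by symbol out of 62218 genes with a matched transcript, of which 27632 had enough counts to be tested. The list holds 7 pro-survival genes, 17 pro-death genes, 2 p53 regulators and 7 p53 targets, and MDM2, BAX, BBC3 and PMAIP1 are p53 targets as well. Each gene was given the count of its transcript with the largest mean count over the libraries.

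The counts came from Nanopore cDNA sequencing of total RNA from H1, an established line of human embryonic stem cells (hESCs), with 2 libraries of naïve cells and 2 of primed cells. The genotype was WT in both states. Primed cells resemble the epiblast after implantation and were grown in mTeSR on Matrigel in normal oxygen to 60-70% confluency. Naïve cells resemble the epiblast before implantation, were derived from the primed H1 cells, and were grown in low oxygen to 50% confluency in the FINE condition, a medium with the kinase inhibitors dasatinib, AZD5438, SB590885, PD0325901 and Y-27632 and with LIF, Activin A and bFGF. State, medium, oxygen and confluency therefore changed together and cannot be told apart. Nothing says that the libraries of a state came from separate cultures, so the p-values measure the spread between these libraries, which may be technical.

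Apoptosis through mitochondria is set by the balance within the BCL2 family. Pro-survival members hold the pore formers BAX and BAK in check, BH3-only members lift that check, and an open pore releases cytochrome c, which assembles with APAF1 into the apoptosome and activates initiator caspase-9. The p53 protein induces several of these death genes together with genes of repair, metabolism and its own inhibitor MDM2. Human pluripotent cells are known for undergoing apoptosis readily after DNA damage.

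The libraries held between 23489354 and 30936882 counts over all genes, and a gene at 0 could still hold 3 counts, which is 0.0979 to 0.130 CPM, the counts scaled to a common library size. The CPM scale was set by TMM, a method that takes it from the genes that change least. Such limits and the intervals given below cover counting error alone, because no molecular identifiers were used. The labels fitted the markers of the states, with 8 of 8 naïve markers lower and 8 of 8 primed markers higher in primed cells. The naïve marker KLF17 differed little, with 95.3 CPM in naïve and 71.9 CPM in primed cells (log2 fold change -0.41). A list of 18 trophoblast genes summed to 3253 and 3559 CPM in naïve cells and to at most 15.1 CPM in primed cells. Most of the naïve sum came from CGA, with a mean of 1708 CPM, and from CGB3, CGB5 and CGB8 (422, 403 and 393 CPM). The counts of these CGB genes were close, and an alignment was counted at each place it fell. Of the 18 genes, 16 were lower in primed cells and 3 were at 0 in both primed libraries. KRT7 and ENPEP did not pass the test given below.

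Of the 33 genes, 20 were lower and 9 were higher in primed than in naïve cells at an adjusted p under 0.05 by edgeR's quasi-likelihood test, and 4 did not pass. Over all genes tested 70.0% passed, 37.4% higher and 32.6% lower, while among these genes, which were not drawn without knowledge of the data, 60.6% were lower, a description that carries no test. Their median log2 fold change, primed over naïve, was -0.54, beside 0.08 over all genes. In 31 of the 33 the libraries of the states did not overlap in CPM, as in 84.4% of all genes, the exceptions being BAD and CASP9. Beyond a log2 fold change of 1, 11 genes were lower and 6 higher, against 18.5% lower and 28.6% higher among all genes. In bulk RNA, fewer cells that express a gene and less of its RNA per cell cannot be told apart.

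The small changes among these genes depend on the scale. With library size in place of TMM the median over all genes moved from a log2 fold change of 0.08 to 0.72, and 56.2% of genes were called higher and 16.3% lower. On that scale 11 of the 33 genes were lower and 10 were higher, and BIRC5, APAF1, CYCS, DIABLO and ZMAT3 turned in direction while BIRC2, BAX, CASP6 and MDM4 lost their call. By contrast 11 of the lower genes (XIAP, MCL1, BCL2L1, BAK1, BBC3, HRK, CASP8, MDM2, SESN1, SESN2 and GDF15) and 7 of the higher ones (BCL2, BOK, BMF, BID, PMAIP1, FAS and TNFRSF10B) kept their call under every other scaling, filter, gene value, tool and left-out library tried that gave a value. For BCL2, BOK and FAS this is no sign of stability, since they passed the count filter only through primed cells and had to be higher there.

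**Figure D1:**
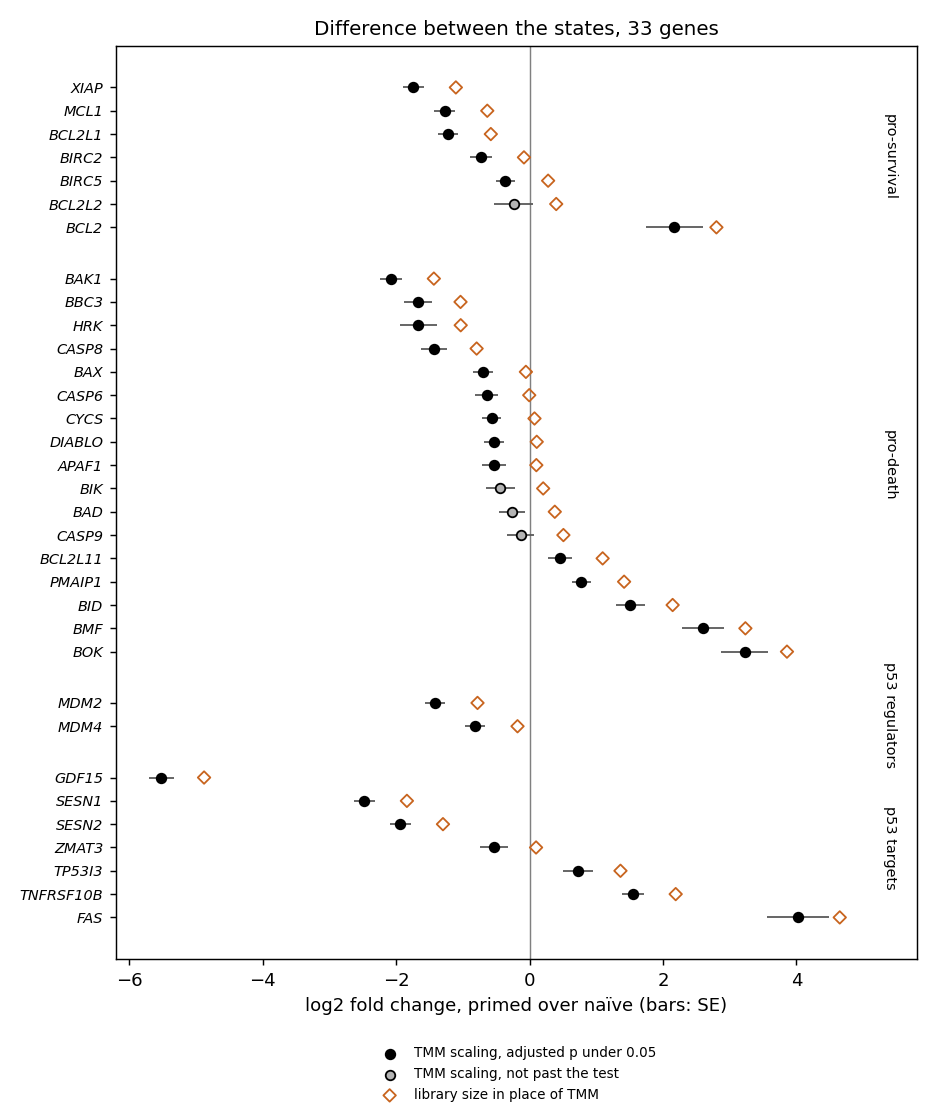
The plot gives the log2 fold change, primed over naïve, of the 33 genes on the x axis, by group and ordered by size. Circles are the TMM-scaled fit with its SE, filled black where the adjusted p was under 0.05, and diamonds the fit with library size. GDF15 lies farthest to the left at -5.52 and FAS farthest to the right at 4.02, and all diamonds sit to the right of their circles.

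MDM2, the ubiquitin ligase that marks p53 for degradation, and MDM4, its partner that binds p53 without degrading it, were both lower in primed cells. MDM2 (chr12:68808177-68845544, GRCh38) had 3438 and 3843 counts in naïve cells and 1730 and 1632 in primed cells, or 150.0 ± 1.13 and 56.1 ± 3.92 CPM (mean ± SD, n = 2). Both naïve libraries lay above both primed libraries, and the log2 fold change was -1.42 ± 0.14 (SE, adjusted p = 1.27e-11). MDM4 (chr1:204516406-204558120) had 884 and 895 counts in naïve and 578 and 671 in primed cells, or 36.7 ± 2.29 and 20.8 ± 1.59 CPM. The libraries again did not overlap, with a log2 fold change of -0.82 ± 0.15 (adjusted p = 6.92e-06), but with library size in place of TMM the value was -0.18 and did not pass (adjusted p = 0.267).

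The p53 protein binds a DNA element made of a pair of half-sites, and matches to this element near the starts of the genes are shown here so that the results can be read beside the sequence. Windows from 250 bases before to 50 bases after the annotated start were searched on both strands for the p53 consensus with at least 17 of 20 positions matching, a gap of up to 3 bases and the core C and G of each half-site kept. RefSeq (GRCh38.p14) gave a window for 28 of the 33 genes. The 5 without one were BCL2L2, MCL1, BIRC5, BIK and TNFRSF10B. A match was found for 11 of the 28, against 5.77% of 27305 genes, and with at least 18 matching positions for 3 (MDM2, FAS and BAK1), against 1.23% of genes. The half-sites are in capitals below, each sequence is on the strand of its gene, and those of FAS and GDF15 are the match alone. The match lies in an intron of the main transcript for MDM2 (chr12:68808898-68808967), SESN1 (chr6:109008993-109009062) and FAS (chr10:88991309-88991328, where another FAS transcript has an exon), in an exon for GDF15 (chr19:18386186-18386205), and before the first exon for BAK1 (chr6:33580303-33580374) and PMAIP1 (chr18:59899786-59899855). Of these 6 genes, MDM2, SESN1, GDF15 and BAK1 were lower and FAS and PMAIP1 higher in primed cells on the TMM scale. The other 5 genes with a match, not printed, were BCL2L1, CASP6, CASP8 and CYCS, which were lower, and BOK, which was higher. FAS and BOK passed the count filter only through primed cells, so they could only be called higher. A match describes these letters and is not a measured binding site.
MDM2: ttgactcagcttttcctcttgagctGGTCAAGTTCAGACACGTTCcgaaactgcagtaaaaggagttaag
SESN1: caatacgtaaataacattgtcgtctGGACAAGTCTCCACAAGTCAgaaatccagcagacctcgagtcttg
GDF15: AGCCATGCCCGGGCAAGAAC
BAK1: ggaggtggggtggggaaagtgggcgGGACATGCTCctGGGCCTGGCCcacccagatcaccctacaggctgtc
FAS: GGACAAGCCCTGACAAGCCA
PMAIP1: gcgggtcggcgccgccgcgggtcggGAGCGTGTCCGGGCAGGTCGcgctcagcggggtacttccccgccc

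Among the 7 p53 targets, 4 were lower (57.1%) and 3 were higher (42.9%) in primed cells, beside 32.6% and 37.4% over all genes tested. The lower ones were GDF15, the sestrins SESN1 and SESN2 and ZMAT3, and the higher ones were the death receptors FAS and TNFRSF10B and the oxidoreductase TP53I3. Most counts of FAS and TP53I3 also touched a gene on the opposite strand, as given below. GDF15, a secreted factor of the TGF-beta superfamily (chr19:18386158-18389176), had 2516 and 2458 counts in naïve cells and 74 and 60 in primed cells, or 103 ± 9.01 and 2.24 ± 0.394 CPM. Its libraries were far apart, with a level 45.9-fold higher in naïve cells and a log2 fold change of -5.52 ± 0.19 (adjusted p = 2.35e-27). GDF15 is also known as a product of the placental trophoblast. Of the 18 trophoblast genes listed above, 16 were higher in the same naïve libraries, and their part in this difference was not tested.

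SESN1 and SESN2 code for stress proteins that restrain mTORC1. SESN1 (chr6:108984309-109094846) had 1382 and 1695 counts in naïve cells and 339 and 343 in primed cells, or 63.2 ± 4.62 and 11.4 ± 0.233 CPM. SESN2 had 773 and 854 counts against 265 and 260, or 33.5 ± 0.0253 and 8.75 ± 0.370 CPM. For both, each naïve library was well above each primed library, with log2 fold changes of -2.48 ± 0.16 for SESN1 (adjusted p = 4.90e-18) and -1.94 ± 0.16 for SESN2 (adjusted p = 2.45e-14). ZMAT3, a zinc finger RNA-binding protein, had 127 and 185 counts in naïve and 115 and 150 in primed cells, with a log2 fold change of -0.54 ± 0.21 (adjusted p = 0.0201). The libraries lay close together. The call of ZMAT3 was lost without naïve replicate 2 (log2 fold change -0.33), without primed replicate 1 (-0.39) and with DESeq2 (-0.59, adjusted p = 0.0551). It was also lost with a filter of 50 counts in 2 libraries, and with library size in place of TMM the value was 0.10.

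FAS, the receptor of FAS ligand (chr10:88986740-89029605), had 3 counts per library in naïve cells and 62 and 63 in primed cells. Its naïve counts were at the floor of 3 counts, so it passed the count filter only through primed cells, and the ratio of primed to naïve was 16.8 with a 95% counting interval from 7.52 to 46.8. The fitted log2 fold change was 4.02 ± 0.46 (adjusted p = 2.95e-10). TNFRSF10B, a receptor of the death ligand TRAIL, had 153 and 154 counts in naïve and 512 and 604 in primed cells, or 6.34 ± 0.422 and 18.6 ± 1.63 CPM. Both primed libraries were higher, with a log2 fold change of 1.55 ± 0.17 (adjusted p = 1.25e-10). TP53I3 had 65 and 89 counts against 169 and 145, and its libraries did not overlap either, with a log2 fold change of 0.73 ± 0.22 (adjusted p = 0.00385). Its call was narrowly lost without naïve replicate 1 (0.58, adjusted p = 0.0501) and without primed replicate 1 (0.58, adjusted p = 0.0552).

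A further list of 28 known p53 targets, all tested, gave 17 lower, 4 higher and 7 that did not pass, with a median log2 fold change of -0.98. That was 60.7% lower and 14.3% higher, beside 32.6% and 37.4% over all genes tested, where the median was 0.08. The calls of this list were taken on the TMM scale alone. The largest falls were those of GADD45A, a growth arrest and DNA damage gene (731 and 781 counts in naïve, 93 in both primed libraries, log2 fold change -3.33), of the membrane protein gene PERP (3589 and 3981 against 527 and 528, -3.15) and of the kinase gene PLK2 (942 and 1157 against 254 and 204, -2.50). The largest rises were those of TNFRSF10A, another TRAIL receptor, of TNFRSF10D, a TRAIL decoy receptor, and of the DNA repair gene DDB2. TNFRSF10A had 8 and 1 counts in naïve and 104 and 109 in primed cells, a ratio of 19.1 with a 95% counting interval from 9.89 to 42.4. TNFRSF10D had 9 and 11 counts against 109 and 111 (log2 fold change 3.14) and DDB2 272 and 227 against 1216 and 1481 (2.12). TNFRSF10A and TNFRSF10D passed the count filter only through primed cells, where they were high, so they could only be called higher. The TNFRSF10 genes are related in sequence, and an alignment was counted at each place it fell.

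**Figure D2:**
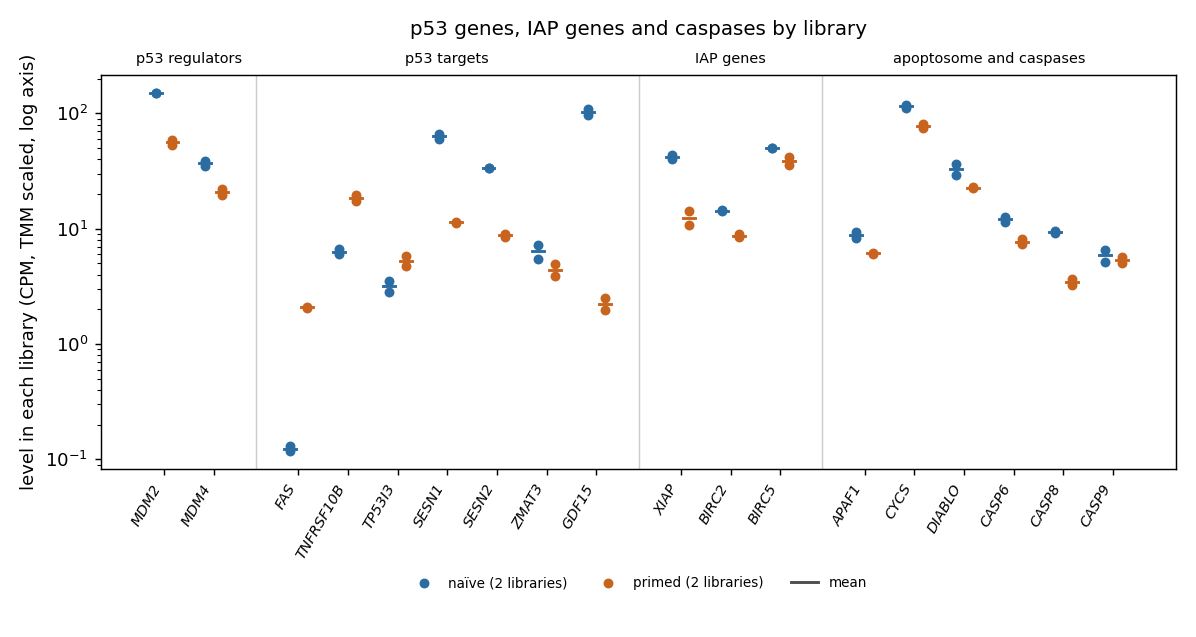
The plot gives the level of each p53, IAP, apoptosome and caspase gene in each library as TMM-scaled CPM on a log axis, with naïve libraries in blue, primed libraries in orange and bars at the mean of 2 libraries. GDF15 falls from 103 to 2.24 CPM and FAS rises from 0.124 to 2.08 CPM, and XIAP, from 41.7 to 12.5 CPM, falls most among the caspase and IAP genes.

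Among the 4 pro-survival BCL2-like genes, which bind and restrain the pore formers and BH3-only proteins, BCL2L1 and MCL1 were lower in primed cells, BCL2 was higher and BCL2L2 did not pass. BCL2L1, the gene of BCL-xL (chr20:31664463-31723989), had 2558 and 2626 counts in naïve and 1356 and 1398 in primed cells, or 107 ± 5.63 and 45.9 ± 0.332 CPM. MCL1 had 857 and 1238 counts in naïve and 550 and 518 in primed cells, or 42.9 ± 8.05 and 17.8 ± 1.27 CPM. In both genes the naïve libraries lay above the primed ones, although the naïve libraries of MCL1 were spread, and the log2 fold changes were -1.22 ± 0.14 for BCL2L1 (adjusted p = 6.99e-10) and -1.27 ± 0.16 for MCL1 (adjusted p = 2.08e-09). BCL2 itself, with 6 and 8 counts in naïve and 31 and 48 in primed cells, was low in count in either state. It passed the filter only through primed cells, with a ratio of 4.56 (95% counting interval 2.56 to 8.72) and a log2 fold change of 2.17 ± 0.43 (adjusted p = 2.15e-05). BCL2L2, the gene of BCL-w, had 40 and 44 counts against 47 and 41, and its log2 fold change of -0.24 ± 0.29 did not pass (adjusted p = 0.476).

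Of the pore formers, BAX and BAK1 were lower and BOK was higher in primed cells. BAK1 (chr6:33572552-33580276) had 1070 and 1022 counts in naïve and 337 and 277 in primed cells, or 43.3 ± 4.48 and 10.2 ± 1.71 CPM, and BAX had 1007 and 1054 against 775 and 801, or 42.5 ± 1.66 and 26.3 ± 0.144 CPM. The naïve libraries were higher for both, by far more for BAK1, with log2 fold changes of -2.08 ± 0.16 (adjusted p = 5.12e-15) and -0.70 ± 0.15 for BAX (adjusted p = 6.23e-05). For BAX the value was -0.06 with library size in place of TMM and did not pass. BOK, a less studied family member, had 7 and 10 counts in naïve and 92 and 107 in primed cells, a ratio of 9.46 (95% counting interval 5.76 to 16.6). It also passed the filter only through primed cells, with a log2 fold change of 3.23 ± 0.35 (adjusted p = 7.34e-11), which fell to 1.33 when counts were summed over its isoforms (adjusted p = 0.00224). These values are for BOK-201. Another BOK transcript, BOK-202, differed little, with 43 and 44 counts in naïve and 66 and 60 in primed cells, a ratio of 1.17 in CPM.

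The 8 BH3-only genes, whose products start the pathway, moved in both directions, with 4 higher (PMAIP1, BID, BMF and BCL2L11), 2 lower (BBC3 and HRK) and 2 that did not pass (BIK and BAD). The p53 targets of this class, PMAIP1 and BBC3, were opposite. PMAIP1, the gene of NOXA, which neutralizes MCL1, had 1484 and 1587 counts in naïve and 3469 and 3033 in primed cells, or 63.3 ± 1.5 and 108 ± 13.4 CPM, and BBC3, the gene of PUMA, had 194 and 222 against 82 and 79, or 8.56 ± 0.207 and 2.68 ± 0.148 CPM. Neither gene had overlapping libraries, with log2 fold changes of 0.78 ± 0.15 for PMAIP1 (adjusted p = 9.49e-06) and -1.67 ± 0.21 for BBC3 (adjusted p = 1.95e-09). HRK, which antagonizes BCL-xL, had 76 and 102 counts in naïve and 30 and 39 in primed cells (log2 fold change -1.67 ± 0.27, adjusted p = 9.83e-07).

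BMF, a BH3-only protein held at the cytoskeleton, had 16 and 13 counts in naïve and 107 and 112 in primed cells, and BID, which caspase-8 cleaves to link death receptors to mitochondria, had 56 and 69 against 203 and 237. Primed libraries were clearly the higher for both, with log2 fold changes of 2.60 ± 0.31 for BMF (adjusted p = 1.02e-09) and 1.51 ± 0.22 for BID (adjusted p = 6.08e-08). BCL2L11, the gene of BIM, had 155 and 160 counts against 240 and 296 and a log2 fold change of 0.46 ± 0.18 (adjusted p = 0.0262). Its call was not stable, since it was lost with DESeq2 (0.41, adjusted p = 0.123) and with counts summed over isoforms (0.35, adjusted p = 0.0723). The call was also lost without naïve replicate 1 (0.50), naïve replicate 2 (0.40) or primed replicate 2 (0.33). BIK had 135 and 120 counts against 105 and 129 (log2 fold change -0.44 ± 0.21, adjusted p = 0.0664), and passed when naïve replicate 2 was left out (-0.59, adjusted p = 0.0354). BAD had 221 and 181 counts in naïve and 233 and 182 in primed cells, with overlapping libraries in CPM (log2 fold change -0.27 ± 0.19, adjusted p = 0.217).

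**Figure D3:**
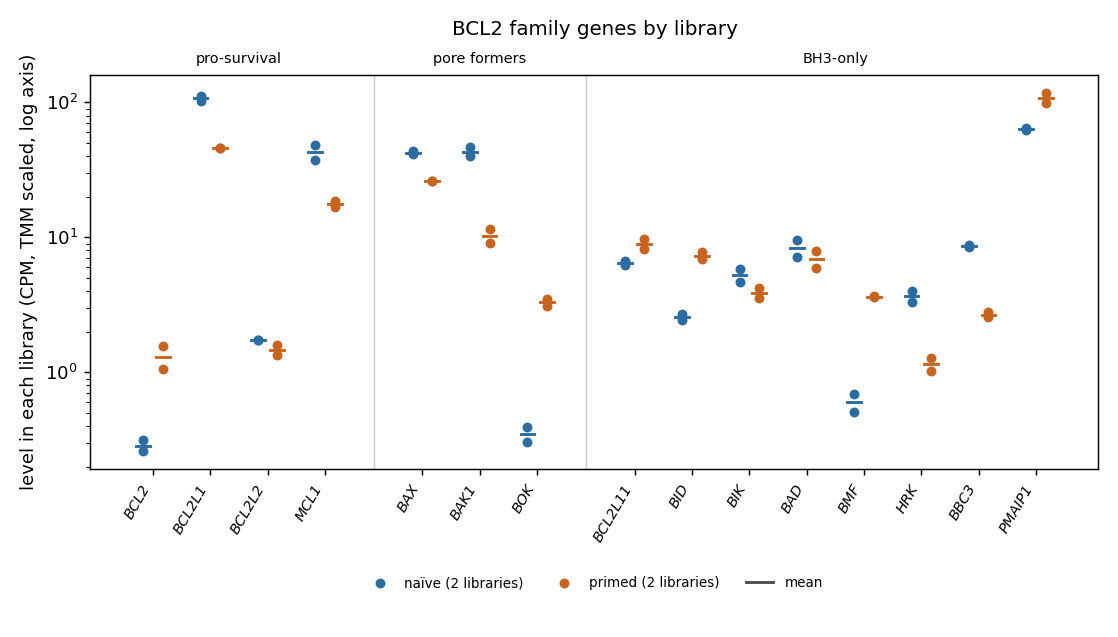
The plot gives the level of each BCL2 family gene in each library as TMM-scaled CPM on a log axis, with naïve libraries in blue, primed libraries in orange and bars at the mean of 2 libraries. BCL2, BOK and BMF lie under 1 CPM in both naïve libraries and above 1 CPM in both primed libraries, BAK1 shows the largest fall, from 43.3 to 10.2 CPM, and the libraries of BAD overlap.

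Of the 6 genes of the apoptosome and the caspases, 5 were lower in primed cells and CASP9 did not pass. CASP8, the initiator caspase of death receptors, changed most, with 218 and 232 counts in naïve and 107 and 99 in primed cells, or 9.28 ± 0.252 and 3.44 ± 0.287 CPM. Its libraries were well apart (log2 fold change -1.43 ± 0.20, adjusted p = 2.56e-08), and no other gene of this group was beyond a log2 fold change of 1. CASP6, an executioner caspase, had 291 and 294 counts against 239 and 224 (log2 fold change -0.65 ± 0.17, adjusted p = 0.00109), and CYCS, the gene of cytochrome c, 2718 and 2851 against 2377 and 2276 (-0.57 ± 0.14, adjusted p = 5.39e-04). CYCS has many processed pseudogenes, and the counts do not separate alignments that fall at several places. DIABLO, which relieves caspases of IAP proteins, had 846 and 742 counts against 662 and 700 (log2 fold change -0.54 ± 0.15, adjusted p = 0.00207), and APAF1 190 and 240 against 180 and 186 (-0.54 ± 0.18, adjusted p = 0.00945). The call was lost for DIABLO without naïve replicate 1 (-0.36, adjusted p = 0.0845) and for APAF1 without naïve replicate 2 (-0.44, adjusted p = 0.0877), and with library size CASP6, CYCS, DIABLO and APAF1 all lay between -0.01 and 0.11. CASP9, the initiator of the apoptosome, had 152 and 132 counts in naïve and 166 and 155 in primed cells, with overlapping libraries in CPM (log2 fold change -0.13 ± 0.20, adjusted p = 0.560), and 0.04 without naïve replicate 1.

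The 3 IAP genes were all lower in primed cells on the TMM scale. XIAP, the direct inhibitor of caspases, had 927 and 1101 counts in naïve and 318 and 432 in primed cells, or 41.7 ± 2.10 and 12.5 ± 2.33 CPM, with no overlap of the libraries and a log2 fold change of -1.74 ± 0.16 (adjusted p = 6.44e-13). BIRC2, a ubiquitin ligase of TNF receptor signalling, had 325 and 371 counts against 263 and 258 (log2 fold change -0.72 ± 0.17, adjusted p = 1.98e-04). BIRC5, the gene of survivin, which also serves in the chromosomal passenger complex in mitosis, had 1147 and 1270 counts against 1238 and 1085, or 49.8 ± 0.0404 and 38.8 ± 4.72 CPM. Its libraries differed little (log2 fold change -0.36 ± 0.15, adjusted p = 0.0270). The call was lost with a filter of 50 counts in 2 libraries (-0.26, adjusted p = 0.0950) and with isoforms that overlap no other gene (-0.32, adjusted p = 0.0554). It was also lost without naïve replicate 1 (-0.37), naïve replicate 2 (-0.36) or primed replicate 2 (-0.24). With library size in place of TMM BIRC5 turned to 0.28 and BIRC2 was at -0.08, and neither passed (adjusted p = 0.0856 and 0.658). A list of 10 other genes of the G2 and M phases, given beside it, had 4 higher, 1 lower and 5 that did not pass, with summed levels of 497 and 461 CPM in naïve and 521 and 473 CPM in primed cells, and the part of the cell cycle in the value of BIRC5 was not tested.

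A further list of 26 apoptosis genes gave 23 that could be tested, of which 15 were lower and 3 higher, with a median log2 fold change of -0.58. That was 65.2% lower and 13.0% higher, beside 32.6% and 37.4% over all genes tested, again on the TMM scale alone. BCL2A1, BCL2L10 and BIRC3 had at most 5 counts in any library. The higher ones were FADD, the adaptor between death receptors and caspase-8 (38 and 43 counts in naïve, 340 and 280 in primed cells, log2 fold change 2.63), the mitophagy gene BNIP3L (0.83) and the mitochondrial protease gene HTRA2 (0.49). The largest falls were those of the IAP gene BIRC7 (35 and 40 counts against 0 in both primed libraries), of the TNF receptor adaptor TRADD (55 and 45 against 13 and 19, -1.95) and of CFLAR, the inhibitor of caspase-8 activation (490 and 440 against 188 and 202, -1.57). BIRC7 passed the count filter only through naïve cells, so it could only be called lower.

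Isoforms were examined next, as the share of each isoform among the length-scaled counts of its gene, with dIF the primed minus the naïve share. None of the 319 isoforms tested in 31 of the genes passed an adjusted p under 0.05 in edgeR's diffSpliceDGE with a dIF beyond 0.1, against 0.556% of all isoforms tested. Nested isoforms share alignments, which spreads the shares of a gene over many isoforms and makes such a dIF hard to reach. MDM2-226 moved only from 2.10% to 7.32% at an adjusted p of 5.82e-26 in that test. The lack of calls therefore does not show unchanged usage. By the adjusted p alone 16 of the 319 isoforms, in 7 of the genes, passed, against 4.27% of all isoforms. Among the 16 the dIF sizes ran from 0.00351 to 0.0861. MDM2 and MDM4 held 5 of them each, which are not separate events, because overlapping isoforms were counted from the same alignments. Where isoforms that share an identical count were collapsed to 1, MDM2-226 passed, from 5.82% of MDM2 in naïve to 17.4% in primed cells. Its own counts differed little, with 882 and 1012 in naïve and 1032 and 816 in primed cells. They were close to those of a processed pseudogene annotated inside MDM2-202 (861 and 989 against 1011 and 807), and shared alignments were not separated. Where shares were not scaled by length BOK-201 and BOK-202 passed, with BOK-201 at 16.3% and 61.1%.

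Since an alignment was counted for each transcript whose span it touched, the counts of nested isoforms give the alignments over parts of a gene. Over the span of MDM2-224 (chr12:68809002-68840807), which ends short of the end of MDM2-202, there were 2455 and 2760 alignments in naïve and 681 and 729 in primed cells, or 107 ± 1.24 and 23.5 ± 0.454 CPM, a ratio of naïve to primed of 4.58. Alignments of MDM2-202 that touched no part of that span numbered 983 and 1083 in naïve and 1049 and 903 in primed cells, or 42.6 ± 0.116 and 32.6 ± 4.38 CPM, a ratio of 1.31. They made up 28.6% and 28.2% of the MDM2 counts in naïve cells and 60.6% and 55.3% in primed cells. The fall was thus larger over the body of MDM2 than over the rest, where a processed pseudogene and an antisense lncRNA are annotated.

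MDM4 gave a like picture, as values without a test. Over the span of MDM4-211 (chr1:204516451-204546832) there were 573 and 592 alignments in naïve and 213 and 217 in primed cells, a ratio of naïve to primed of 3.36 in CPM. The alignments of MDM4-203 that missed it numbered 311 and 303 against 365 and 454, or 12.7 ± 1.14 and 13.6 ± 1.70 CPM, with overlapping libraries. In SESN1 the alignments over SESN1-202 (chr6:108986442-109009555), a form that starts inside the gene and whose span holds the p53 match printed above, numbered 1352 and 1643 in naïve and 319 and 299 in primed cells, a ratio of 5.98. Over SESN1-205 (chr6:109088102-109093968), near the distal start of the gene, they numbered 27 and 39 against 44 and 34, or 1.35 ± 0.254 and 1.30 ± 0.273 CPM, with overlapping libraries.

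**Figure D4:**
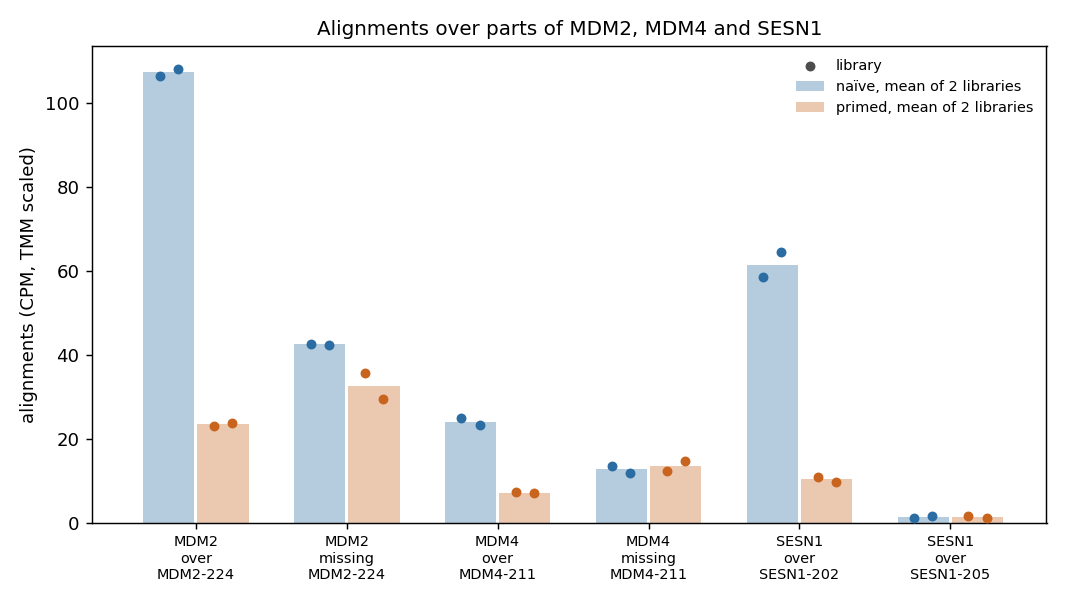
The plot gives the alignments over parts of MDM2, MDM4 and SESN1 as TMM-scaled CPM, with bars at the mean of 2 libraries and points for each library, naïve in blue and primed in orange. Over MDM2-224 the mean falls from 107 to 23.5 CPM and over MDM4-211 it falls as well, while the alignments that miss MDM4-211 and those over SESN1-205 overlap between the states.

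Strand was not used in the counting, so reads of a gene and of a neighbour on either strand that shares its span cannot be told apart, and 23 of the 33 spans overlapped another gene. All naïve FAS counts and 84.0% of the primed ones touched an antisense lncRNA inside the gene. That left 0 in both naïve libraries and 12 and 8 in the primed ones, too few to pass the count filter. For TP53I3, 91.6% of naïve and 89.5% of primed counts touched FAM228B on the opposite strand, and without them its log2 fold change of 1.02 did not pass (adjusted p = 0.0688). Without the alignments over the antisense lncRNA at its end, MDM2 was at -2.34, and without those over ABALON, an antisense lncRNA, BCL2L1 was at -1.06. SESN1, BMF and BID, treated likewise, were at -2.50, 2.39 and 1.30, and these 5 kept their calls.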

How the data were processed

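The authors aligned Nanopore cDNA reads to GRCh38 with minimap2 and deposited raw counts of alignments per transcript, made with featureCounts 2.0.0 on Ensembl 105. Per the file headers, an alignment counted for all transcripts whose spans it overlapped, introns included and strand ignored, and at all places of multi-mapping reads (options -L, -O and -M). Symbols came from GENCODE 44 by transcript identifier, with 242542 of 244825 matched and 1.00% of counts unmatched. The members and gene lists were chosen with earlier results of these data known, and all 33 members are named. Other lists are given by counts and the 3 largest calls in each direction.

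A gene entered the test where 2 or more libraries had 10 or more counts. Genes were tested by edgeR 4.0.16 (R 4.3.3, TMM, quasi-likelihood, state as the term) with Benjamini-Hochberg adjustment over all 27632 genes, two-sided, and isoform usage by diffSpliceDGE. SE values are log2 fold change over the root of F. The fits were tested on simulated data. Alternatives were DESeq2 1.42.0, library size in place of TMM, a replicate block, other count filters, other gene values, other isoform thresholds and each library left out. Removal of alignments that touch an inner gene was chosen after the data were seen. Replicate counts differed beyond sampling noise, with a chi-square per degree of freedom of 15.2 in naïve and 8.89 in primed cells. No protein sequences were used here.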

Additional observations from a re-analysis of the deposited data

How the results depend on the processing

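With library size in place of TMM, 11 of the genes were lower, and the log2 fold changes of 9 turned to higher in primed cells, with values of 0.40 for BCL2L2, 0.28 for BIRC5, 0.20 for BIK, 0.38 for BAD, 0.10 for APAF1, 0.074 for CYCS, 0.11 for DIABLO, 0.10 for ZMAT3 and 0.51 for CASP9, of which CASP9 alone passed (adjusted p = 0.0284). With each library left out in turn CASP9 lay between -0.31 and 0.043. A log2 fold change beyond 1 left 11 lower genes. With isoforms that overlap no other gene, 24 of the 33 could be tested, 5 were higher, and 9360 genes were called, since fewer genes entered. With each library left out in turn, the genes called higher numbered 7 to 8, those called lower 18 to 19 and all genes called 17314 to 17870. The lone library of a state was then assumed to vary like the others.

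Over all isoforms 888 were called, 6809 with no dIF threshold (16 of these genes), 303 with a threshold of 0.2 and 493 to 557 with a library left out. Of the isoforms of these genes 1 was called with identical isoforms collapsed and 2 with fractions without length. The cause of these moves was not tested. The correlation of deviations between libraries of the same number was 0.04, which does not show pairing. With a replicate block 9 genes were higher and 20 lower, 19689 genes were called, no member isoform was called, and none of the 33 changed its call.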
